A study of Mus musculus with 10 samples.

Results

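The genes described here are 46 genes of DNA replication and cell division, 22 that copy the genome and 24 that run mitosis, measured by RNA sequencing in whole skin of old and younger mice. They were chosen as a list of symbols by their known roles, with no threshold on measured values. The choice was made with earlier results of these data known. All 46 were found among the 47729 genes of the count table, and all 46 were among the 17668 genes with enough reads to be tested. The mice were male C57BL/6, an inbred laboratory strain, with 5 libraries of skin at 24 months of age and 5 at 9 months. No treatment, transgene or mutation is labelled in either group. The sample labels give the younger age as 9 months, and the titles of those libraries also carry a 9. The series' design text gives 2 months, and nothing used here settles which holds. The labels give no body site, hair cycle stage or date. The titles carry separate numbers, read here as 1 mouse per library; if that reading fails, p-values measure only the spread between libraries.

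Replication starts when Cdc6 and Cdt1 help load the ring of Mcm2 to Mcm7 proteins onto origins, and the ring becomes a working helicase once Cdc45 and the GINS subunits join it. DNA polymerases, the sliding clamp Pcna, its loader (the RFC complex) and the flap nuclease Fen1 then copy the strands, while ribonucleotide reductase and thymidylate synthase supply the nucleotides. In mitosis, Cdk1 with cyclins A and B, the Polo and Aurora kinases, the checkpoint kinases, the kinesin motors and the anaphase-promoting complex condense, align and separate the chromosomes. In cultured mammalian cells, replication genes are mostly switched on by E2F factors as cells leave G1. Mitosis genes come on later, in G2, through promoters that often hold a CHR element and CCAAT boxes bound by NF-Y. In skin, dividing cells sit in the basal layer of the epidermis, in the sebaceous glands and, while a hair grows, in the matrix of the hair bulb. Whole skin holds all of these, so fewer dividing cells and less RNA of these genes per cell cannot be told apart.

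Several libraries stood apart. Fold changes of single genes below are given with and without 9 months replicates 4 and 5. Results without the other libraries are given mainly as medians and counts of each set. Total counts were 31556025 to 40766879 per library in 24 months skin and 29324259 to 55976007 in 9 months skin. The skin markers Krt5, Krt14, Krt10 and Col1a1 were present in every library, the lowest at 111 CPM (counts per 1000000 counts of the library, with edgeR's TMM scaling throughout). Krt73, a keratin gene of the inner root sheath of growing hairs, was at 0.803 to 2.22 CPM in 24 months skin and at 0.952, 10.4, 8.98, 363 and 959 CPM in 9 months replicates 1 to 5. Replicates 4 and 5 at 9 months, the 2 libraries at 100 CPM or more, are the ones left out of the 8-library fit. At 24 months, replicates 1 and 2 had fibroblast marker sums of 1804 and 1215 CPM, below the 4773 to 7076 CPM of the other 24 months libraries and the 8101 to 11735 CPM of 9 months skin. In 9 months replicate 1, the mean deviation of genes with exons longer than the median minus that of shorter genes was -0.38 log2 units, against -0.05 to 0.15 in the other libraries.

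The promoters of a few of these genes are shown first. Each is 300 bases of GRCm38.p6 from RefSeq, from 250 before to 50 after the annotated start, read 5′ to 3′ on the strand of the gene. Of the 46 genes, 38 had such a window. Shown are the 3 replication genes and the 3 mitosis genes with the smallest p in the comparison of ages, and then Mcm5, Ccnb2 and Cdk1, which were chosen after the matches were seen because they hold several. Capitals mark matches on either strand to 3 forms of the E2F site (TTTGGCGC, TTTCGCGC and GGCGGGAA), 2 forms of the CHR element (TTTGAA and TTCGAA) and the CCAAT box. A match on the opposite strand reads as the reverse complement, such as ATTGG for CCAAT.
Tyms (chr5:30073576-30073875, minus strand): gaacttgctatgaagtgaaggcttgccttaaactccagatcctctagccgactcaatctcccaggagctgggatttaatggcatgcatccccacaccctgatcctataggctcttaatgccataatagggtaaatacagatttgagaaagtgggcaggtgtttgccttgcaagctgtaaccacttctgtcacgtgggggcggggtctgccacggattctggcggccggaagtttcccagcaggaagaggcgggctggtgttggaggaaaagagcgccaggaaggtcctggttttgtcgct
Rrm2 (chr12:24708004-24708303, plus strand): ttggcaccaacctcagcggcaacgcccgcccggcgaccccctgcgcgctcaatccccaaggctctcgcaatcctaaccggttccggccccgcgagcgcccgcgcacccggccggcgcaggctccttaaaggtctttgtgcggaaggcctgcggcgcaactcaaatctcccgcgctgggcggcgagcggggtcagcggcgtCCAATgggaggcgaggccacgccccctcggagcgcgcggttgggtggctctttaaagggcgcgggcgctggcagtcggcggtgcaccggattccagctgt
Rrm1 (chr7:102441445-102441744, plus strand): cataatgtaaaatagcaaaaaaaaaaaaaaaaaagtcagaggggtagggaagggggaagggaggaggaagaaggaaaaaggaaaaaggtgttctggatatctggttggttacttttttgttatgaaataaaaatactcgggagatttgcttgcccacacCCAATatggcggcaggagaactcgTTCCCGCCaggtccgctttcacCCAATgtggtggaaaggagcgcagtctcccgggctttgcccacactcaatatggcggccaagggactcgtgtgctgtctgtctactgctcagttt
Mcm5 (chr8:75109259-75109558, plus strand): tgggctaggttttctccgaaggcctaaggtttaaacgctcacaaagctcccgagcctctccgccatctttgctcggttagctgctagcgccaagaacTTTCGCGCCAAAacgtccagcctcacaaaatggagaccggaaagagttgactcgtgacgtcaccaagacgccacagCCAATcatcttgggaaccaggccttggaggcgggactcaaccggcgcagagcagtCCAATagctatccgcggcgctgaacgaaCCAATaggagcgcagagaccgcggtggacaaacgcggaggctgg
Birc5 (chr11:117848987-117849286, plus strand): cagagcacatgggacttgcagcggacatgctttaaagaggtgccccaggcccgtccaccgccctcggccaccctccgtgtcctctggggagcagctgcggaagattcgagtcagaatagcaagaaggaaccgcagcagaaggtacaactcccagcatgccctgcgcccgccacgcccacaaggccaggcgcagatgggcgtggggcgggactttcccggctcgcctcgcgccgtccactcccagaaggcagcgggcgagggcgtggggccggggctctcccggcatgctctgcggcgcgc
Cdca8 (chr4:124936868-124937167, minus strand): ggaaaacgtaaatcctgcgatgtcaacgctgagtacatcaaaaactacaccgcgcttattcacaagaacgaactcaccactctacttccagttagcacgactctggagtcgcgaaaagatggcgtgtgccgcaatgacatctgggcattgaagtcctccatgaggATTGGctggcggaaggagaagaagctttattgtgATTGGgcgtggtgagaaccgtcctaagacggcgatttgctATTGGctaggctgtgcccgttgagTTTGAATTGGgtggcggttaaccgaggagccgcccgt
Melk (chr4:44300667-44300966, plus strand): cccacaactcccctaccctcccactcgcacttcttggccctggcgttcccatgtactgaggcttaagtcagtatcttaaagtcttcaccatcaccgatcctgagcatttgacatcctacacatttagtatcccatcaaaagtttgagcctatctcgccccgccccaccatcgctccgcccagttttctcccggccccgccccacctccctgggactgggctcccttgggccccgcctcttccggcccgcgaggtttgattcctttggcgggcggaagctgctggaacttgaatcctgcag
Ccnb2 (chr9:70421505-70421804, minus strand): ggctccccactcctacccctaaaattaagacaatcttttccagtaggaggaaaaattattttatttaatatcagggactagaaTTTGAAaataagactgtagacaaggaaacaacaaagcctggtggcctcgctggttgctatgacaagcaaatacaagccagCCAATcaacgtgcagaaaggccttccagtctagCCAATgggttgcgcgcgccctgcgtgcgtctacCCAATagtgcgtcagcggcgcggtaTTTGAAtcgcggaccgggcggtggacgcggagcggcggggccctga
Cdk1 (chr10:69352863-69353162, minus strand): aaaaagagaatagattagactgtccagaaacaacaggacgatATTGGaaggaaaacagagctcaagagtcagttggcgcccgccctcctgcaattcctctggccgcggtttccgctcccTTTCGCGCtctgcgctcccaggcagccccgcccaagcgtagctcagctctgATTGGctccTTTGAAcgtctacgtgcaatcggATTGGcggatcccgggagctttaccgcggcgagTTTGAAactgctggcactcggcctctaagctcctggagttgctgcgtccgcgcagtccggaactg

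Of the 6 windows chosen by p, those of Rrm2, Rrm1 and Cdca8 held a match. Counted from the annotated start as 0, Mcm5 had the overlapping E2F matches TTTCGCGC at -153 and GCGCCAAA at -149 and CCAAT at -77, -22 and 6. In Rrm1 the E2F form TTCCCGCC lay at -67, with CCAAT at -91 and -45, while Rrm2 had a single CCAAT at -50. Ccnb2, a B-type cyclin gene, had CCAAT at -87, -54 and -21 and TTTGAA at -167 and 4. Cdca8 had ATTGG at -85, -51, -11 and 18 and TTTGAA at 13, whose last base is also the first of the ATTGG at 18. Cdk1 held all 3 families, with TTTCGCGC at -131, TTTGAA at -71 and -15, and ATTGG at -208, -80 and -48. Tyms, Birc5 and Melk held none of these letters in their windows.

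The same letters were counted over all matched members, whose choice did not use them, with a gene counted where any of its windows held a match (Fen1 and Mcm7 have 2 windows); no test was run. An E2F form stood in the window of 10 of 18 matched replication genes (55.6%) and 1 of 20 matched mitosis genes (5%), against 2.96% of the 32851 windows of the table. A CHR form stood in 5 of 18 replication genes (27.8%) and 15 of 20 mitosis genes (75%), against 19.2% of all windows. CCAAT stood in 12 of 18 (66.7%) and 17 of 20 (85%), against 37.4% of all windows, and CHR together with CCAAT in 4 of 18 (22.2%) and 15 of 20 (75%), against 7.52%. The 10 replication genes with an E2F form were Cdt1, Mcm3, Mcm5, Mcm6, Mcm7, Pola1, Pold1, Rfc3, Rfc4 and Rrm1. Their log2 fold changes of 24 over 9 months spanned -0.92 to -0.13 (median -0.32, and -0.06 in 8 libraries), and those of the 8 matched replication genes without one spanned -1.17 to -0.29 (median -0.72, and -0.13 in 8 libraries). Matched mitosis genes without a CHR form were Birc5, Ccnb1, Cenpe, Melk and Nusap1. The log2 fold changes of these 5 spanned -1.36 to -0.81 (median -1.25, and -0.76 in 8 libraries), and those of the 15 genes with a CHR form spanned -1.34 to -0.16 (median -1.24, and -0.65 in 8 libraries). A match of letters is not a bound site, and windows without a match say nothing about the factor.

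**Figure D1:**
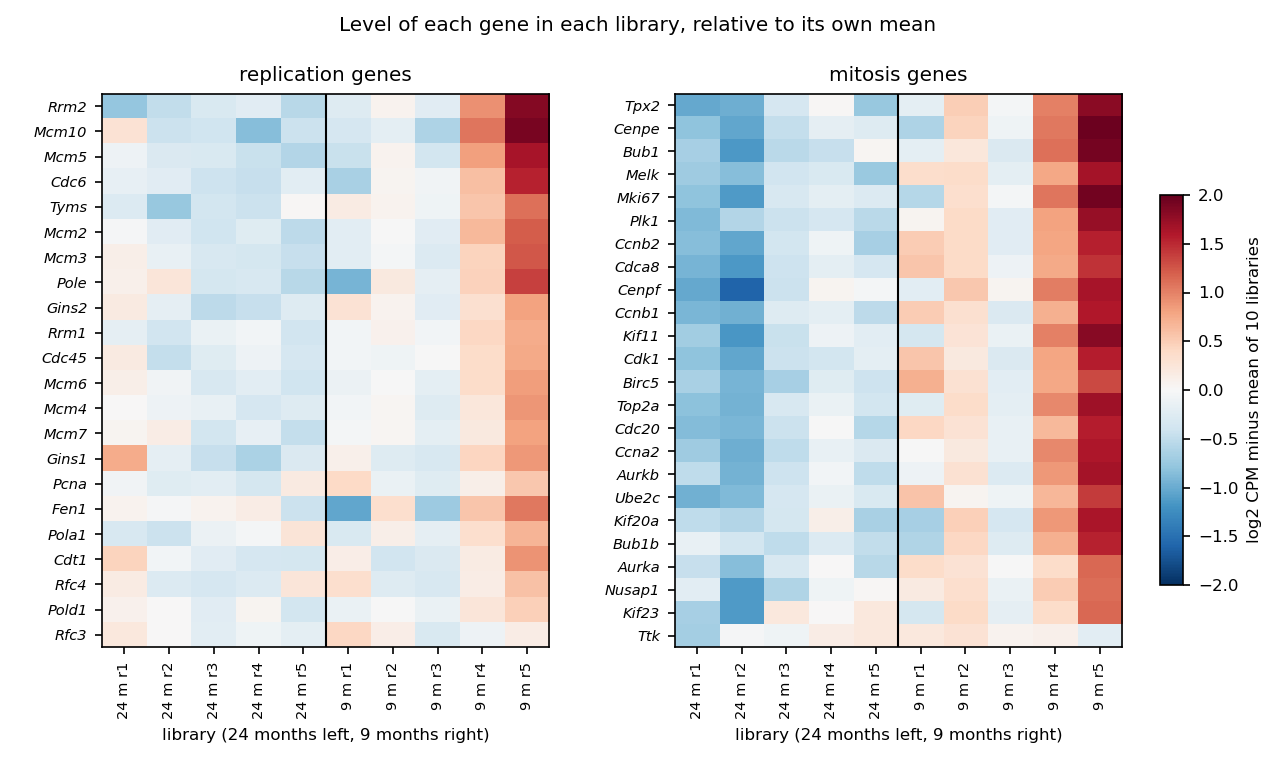
Level of each gene (rows) in each library (columns; 24 months left of the line, 9 months right), as log2 CPM minus the gene's mean over the 10 libraries, with replication genes in the left panel and mitosis genes in the right. The last column, 9 months replicate 5, is the highest for 21 of 22 replication genes and 23 of 24 mitosis genes, and 24 months replicate 2 is the lowest for 18 of 24 mitosis genes.

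Levels of both sets were lower in 24 months skin on average, but no gene of either set passed the adjusted threshold, and the difference between the sets was not tested. The median log2 fold change of 24 over 9 months was -1.24 over the 24 mitosis genes and -0.41 over the 22 replication genes, beside -0.01 over all genes tested. All 24 and all 22 fold changes were negative, where 51.6% of all genes had a negative one. With edgeR's quasi-likelihood test and Benjamini-Hochberg adjustment over 17668 genes, 0 of 46 members and 0 genes of the whole table (0%) passed an adjusted p of 0.05 in either direction. The smallest adjusted p was 0.142 for the mitosis genes (Birc5) and 0.202 for the replication genes (Tyms), and 0.0909 over all genes. At an unadjusted p under 0.05, 22 of 24 mitosis genes (91.7%) and 8 of 22 replication genes (36.4%) were lower, against 6.45% of all genes, and 0 of 46 were higher, against 6.62%. DESeq2, which gave 907 calls over all genes, called 19 mitosis genes and 1 replication gene (Rrm2) lower at an adjusted p under 0.05, where 2.29% of its 20863 genes were called lower. The limma-voom fit called 0 members and 0 genes. Leaving out 1 library at a time kept the mitosis count at 20 to 22. The replication count was 3 without 9 months replicate 4, 9 months replicate 5 or 24 months replicate 5. It was 4 without 24 months replicate 3 or 4, 5 without 24 months replicate 2, and 12 without 9 months replicate 1. For these fits the share of all genes is not given.

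The level of both sets in each library shows where these differences lay. The summed level of the mitosis genes was 214, 188, 281, 329.7 and 297 CPM in 24 months replicates 1 to 5, against 346, 452, 327.2, 638 and 1074 CPM in 9 months replicates 1 to 5. Replicates 4 and 5 at 9 months were the highest, replicates 1 and 2 at 24 months were the lowest, and the groups met, with 24 months replicate 4 at 329.7 CPM above 9 months replicate 3 at 327.2 CPM. For the replication genes the sums were 383, 338, 320, 328.6 and 315 CPM in 24 months skin, against 371, 385, 333, 503 and 741 CPM in 9 months skin. Here 24 months replicate 1 was about as high as 9 months replicates 1 and 2, and only 9 months replicates 4 and 5 lay clear of the rest. The ratio of the mitosis sum to the replication sum was 0.560, 0.558, 0.880, 1.003 and 0.943 in 24 months skin, against 0.932, 1.17, 0.983, 1.27 and 1.45 in 9 months skin, so it was lowest in 24 months replicates 1 and 2 and highest in 9 months replicates 4 and 5.

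**Figure D2:**
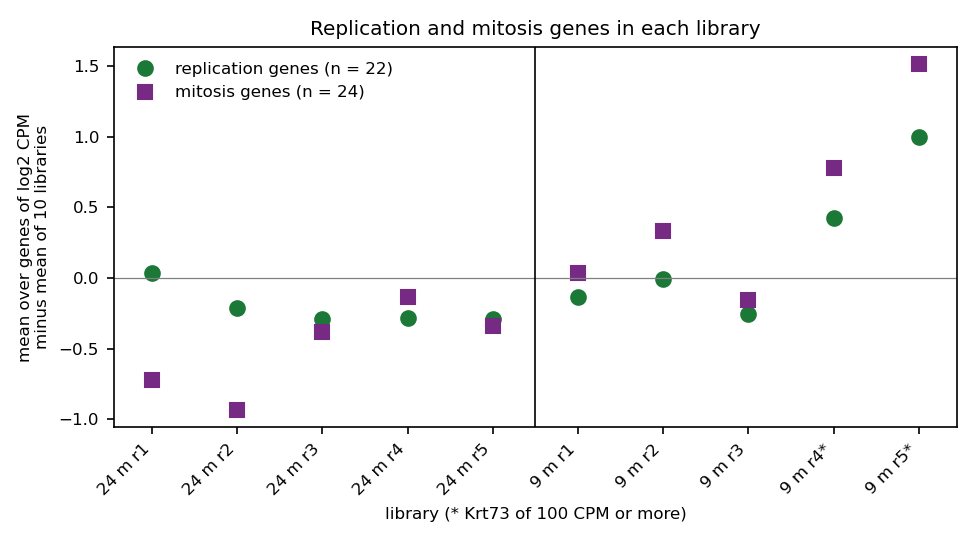
Mean over the 22 replication genes (green circles) and the 24 mitosis genes (purple squares) of log2 CPM minus the gene's mean over 10 libraries, for the 24 months libraries (left of the line) and the 9 months libraries (right; asterisks mark the 2 with Krt73 of 100 CPM or more). The mitosis genes stand at -0.72 and -0.93 in 24 months replicates 1 and 2, where the replication genes stand at 0.04 and -0.21.

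Without the 2 libraries of high Krt73 the replication difference was small, while a part of the mitosis difference was still there. The 2 libraries were the highest pair for 17 of 22 replication genes, all but Gins1, Cdt1, Pcna, Rfc3 and Rfc4, and for 21 of 24 mitosis genes, all but Aurka, Ttk and Kif23. In 9 months replicate 5 the level was 1.01 (Rfc3) to 4.75 (Mcm10) times the median of 9 months replicates 1 to 3 over the replication genes, with a median ratio of 1.99. Over the mitosis genes it was 0.926 (Ttk) to 4.35 (Bub1) times, with a median of 2.80. Without these 2 libraries the median log2 fold change was -0.59 for the mitosis genes and -0.08 for the replication genes, beside 0.01 over all 18036 genes then tested. All 24 mitosis genes and 16 of 22 replication genes were still negative, against 48.6% of all genes. The count lower at an unadjusted p under 0.05 was 13 of 24 mitosis genes (54.2%) and 0 of 22 replication genes, against 4.14% of all genes. With 1 more library left out, that mitosis count was 8 to 15. It was 8 without 9 months replicate 2, and 10 without 24 months replicate 1 or without 24 months replicate 2. The mitosis median was then -0.42, -0.54 and -0.45. No share of all genes is given for the fits with 1 more library left out. The mitosis sums were lowest in 24 months replicates 1 and 2, and no fit left out both of these and the 2 high-Krt73 libraries. At an adjusted p under 0.05 the edgeR fit without only the 2 high-Krt73 libraries called 0 members and 1 gene of the table (0.00554%). Its smallest adjusted p values were 0.514 for mitosis genes and 0.591 for replication genes. DESeq2 on the same 8 libraries called 0 members and 127 genes, 0.221% of its genes being lower.

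**Figure D3:**
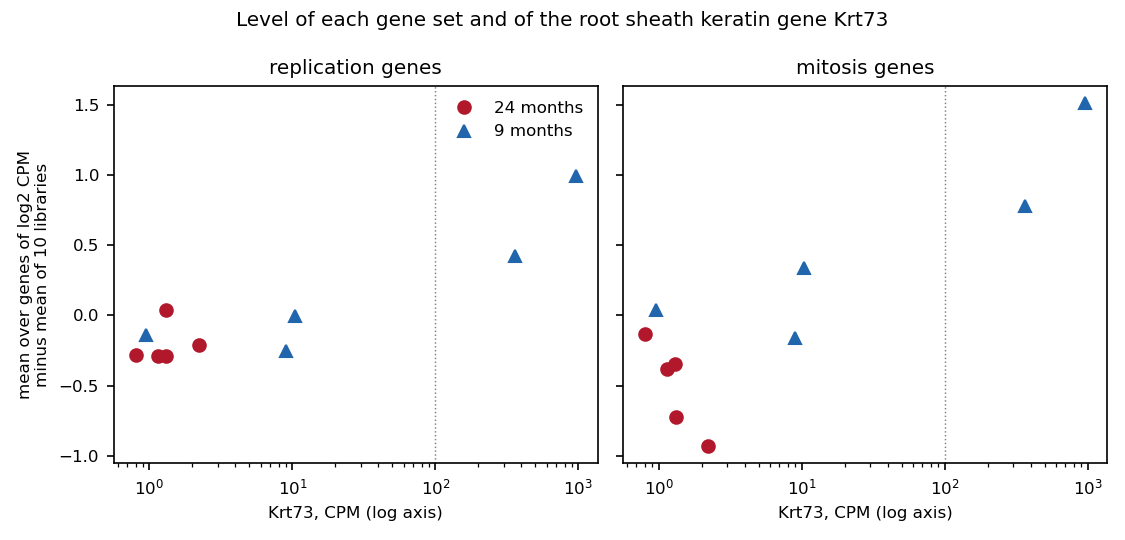
Mean deviation of the replication genes (left) and the mitosis genes (right), in log2 CPM, against the CPM of the root sheath keratin gene Krt73 (log axis) in each library; red circles are 24 months and blue triangles 9 months, and the dotted line marks 100 CPM. The 2 libraries right of the line, at 363 and 959 CPM of Krt73, are the highest for both sets, and the 24 months libraries all lie at 2.22 CPM of Krt73 or less, with mitosis values of -0.93 to -0.13.

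Markers of other cells moved with the libraries as well. The summed level of the hair growth markers (22 of 24 tested; Shh at 0 in some library) was 215 to 443 CPM in 24 months skin and 333 to 642 CPM in 9 months replicates 1 to 3, with 11960 and 34155 CPM in replicates 4 and 5. When the mean log2 level of these markers was added to the edgeR fit, the median log2 fold change was -0.38 for mitosis genes and 0.08 for replication genes. At an unadjusted p under 0.05, 2 mitosis genes and 0 replication genes were lower. The share of all genes lower in that fit is not given here. Basal epidermis markers (7 of 7 tested, none at 0) summed to 7059 to 12249 CPM in 24 months skin and 7643 to 12443 CPM in 9 months skin, so the ranges overlapped. Upper epidermis markers (8 of 8) also overlapped, at 6831 to 14453 CPM in 24 months skin and 4585 to 16212 CPM in 9 months skin. Fat cell markers (7 of 7) summed to 13949 CPM in 24 months replicate 1, against 1569 to 3203 CPM in the other 24 months libraries and 1960 to 3903 CPM in 9 months skin. Fibroblast markers (7 of 7) were lower in all 5 24 months libraries than in every 9 months library, with the sums given above. By contrast, B cell markers (8 of 8) summed to 103 to 798 CPM in 24 months skin and 34.0 to 142 CPM in 9 months skin. T cell markers (7 of 7) summed to 38.9 to 67.7 CPM in 24 months skin and 15.3 to 42.9 CPM in 9 months skin. For muscle markers (7 of 7) the sums were 25521 to 43492 CPM at 24 months and 18906 to 53130 CPM at 9 months. Sebaceous markers (6 of 7) summed to 85.9 to 171 CPM at 24 months and 113 to 132 CPM at 9 months. Melanocyte markers (5 of 6, Tyr at 0 in some library) summed to 32.4 to 42.9 CPM at 24 months. In 9 months replicates 1 to 5 they summed to 37.5, 42.6, 36.8, 158 and 341 CPM. The part of these cell types in the results was not tested. Only the hair markers entered a fit, and their mean log2 level was 1.15 to 2.65 at 24 months and 1.5 to 9.41 at 9 months. With the high values in 9 months skin alone, that fit cannot tell hair growth and age apart. Without 24 months replicates 1 and 2, the mitosis median was -1.01 with 17 genes lower at an unadjusted p under 0.05, and the replication median was -0.54 with 4. The share of all genes is not given for that fit either.

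Among the genes that load and activate the helicase, Mcm5 and Mcm10 had the largest fold changes, and both were near 0 without the 2 libraries. Mcm5, a subunit of the helicase ring (chr8:75109569-75128439), was at 19.6, 17.1, 17.03, 15.3 and 13.9 CPM in 24 months skin, against 15.4, 22.03, 16.3, 37.2 and 66.1 CPM in 9 months skin. Replicates 1 to 3 at 24 months lay within the range of 9 months replicates 1 to 3, and replicates 4 and 5 lay below it. Its log2 fold change was -0.92 ± 0.36 (SE, adjusted p = 0.294, edgeR), and -0.11 ± 0.18 without the 2 libraries. Mcm2, another ring subunit, was at 22.2, 19.1, 16.98, 19.0 and 15.7 CPM in 24 months skin, against 19.3, 22.4, 19.2, 35.0 and 52.2 CPM in 9 months skin. Its groups overlapped, and its log2 fold change of -0.67 ± 0.27 became -0.13 ± 0.16 (95% interval -0.49 to 0.23) in 8 libraries. Mcm6, the most abundant ring subunit per kilobase of exon at 9.60 CPM per kb, was at 46.9, 41.1, 34.6, 37.7 and 32.9 CPM in 24 months skin, against 39.9, 43.1, 38.0, 56.1 and 77.6 CPM in 9 months skin. The highest 24 months library, replicate 1, was above 9 months replicates 1 to 3, and the log2 fold change was -0.40 ± 0.20, or -0.07 ± 0.15 in 8 libraries. The other ring subunits behaved alike, with log2 fold changes of -0.58 for Mcm3, -0.38 for Mcm4 and -0.35 for Mcm7, and of -0.05, -0.08 and -0.08 in 8 libraries.

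Mcm10, which helps the helicase to start, was at 4.98, 3.0, 3.05, 2.23 and 3.0 CPM in 24 months skin, against 3.21, 3.52, 2.64, 8.60 and 15.2 CPM in 9 months skin. Its 24 months libraries spanned the levels of 9 months replicates 1 to 3, and the log2 fold change was -1.04 ± 0.47 with all libraries (adjusted p = 0.377, edgeR) and 0.06 ± 0.28 without the 2. Gins2, a GINS subunit, was at 5.97, 4.65, 3.68, 3.84 and 4.42 CPM in 24 months skin, against 6.45, 5.55, 4.52, 6.60 and 9.31 CPM in 9 months skin. The groups overlapped only through 24 months replicates 1 and 2, and the log2 fold change was -0.53 ± 0.23, or -0.29 ± 0.23 in 8 libraries. Gins2 shares 67.3% of its exon bases with Gse1 on the opposite strand, and whether reads were counted by strand is not given in the sources used here. Gse1 stood at 24.8 to 44.3 CPM in 24 months skin and at 40.2 to 63.2 CPM in 9 months skin, except 3.42 CPM in 9 months replicate 1. The remaining activators had log2 fold changes of -0.32 (Gins1), -0.42 (Cdc45), -0.80 (Cdc6) and -0.25 (Cdt1), and of 0.07, -0.14, -0.10 and 0.09 in 8 libraries. Cdc6 spanned 2.31 to 2.86 CPM in 24 months skin and 2.01 to 9.44 CPM in 9 months skin.

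The genes of the copying machinery had small fold changes, most of them near 0 in 8 libraries. Pcna, the sliding clamp (chr2:132249162-132253314), had the highest level per length of the replication genes at 14.7 CPM per kb, and was at 32.9, 29.1, 29.8, 27.1 and 39.2 CPM in 24 months skin, against 45.6, 31.3, 29.2, 37.5 and 50.1 CPM in 9 months skin. The groups overlapped, and the log2 fold change was -0.29 ± 0.17 (adjusted p = 0.519, edgeR), or -0.17 ± 0.19 in 8 libraries. In the annotation 2 processed pseudogenes carry its name, so its counts depend on how reads with several matches were treated, which is not given in the sources used here. Rfc3, a subunit of the clamp loader, had one of the 2 largest p values, with 14.96, 13.1, 11.2, 12.2 and 11.3 CPM in 24 months skin, against 17.3, 14.2, 10.5, 12.1 and 14.3 CPM in 9 months skin. It was the only replication gene not at its highest in 9 months replicate 5, and its log2 fold change was -0.13 ± 0.16 with an interval of -0.48 to 0.23, or -0.16 ± 0.20 in 8 libraries. Fen1, the flap nuclease, had the lowest level per length at 0.385 CPM per kb and was at 0.899, 0.838, 0.901, 0.959 and 0.625 CPM in 24 months skin, against 0.388, 1.10, 0.496, 1.29 and 1.83 CPM in 9 months skin. The 24 months levels lay inside the 9 months range, and its log2 fold change of -0.29 ± 0.39 turned to 0.35 ± 0.37 in 8 libraries. An antisense gene, Gm10143, covers 78.8% of its exon bases and was itself at 0.0353 to 0.348 CPM. Whether reads were counted by strand is not given, and the effect of this overlap on the low levels of both genes was not tested. The polymerase subunits had log2 fold changes of -0.29 (Pola1), -0.19 (Pold1) and -0.53 (Pole), and Rfc4 of -0.22, with -0.01, 0.00, 0.09 and -0.03 in 8 libraries.

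The enzymes of nucleotide supply were the replication genes with the smallest p values. Tyms, thymidylate synthase (chr5:30058202-30073617), was at 7.0, 5.03, 6.56, 6.32 and 8.68 CPM in 24 months skin, against 9.52, 8.97, 7.96, 12.5 and 18.2 CPM in 9 months skin. Only 24 months replicate 5 reached above the lowest 9 months library, and the log2 fold change was -0.77 ± 0.25 (adjusted p = 0.202, edgeR), or -0.40 ± 0.21 in 8 libraries (interval -0.86 to 0.07). Rrm2, the small subunit of ribonucleotide reductase, was at 7.19, 8.73, 9.94, 10.5 and 8.36 CPM in 24 months skin, against 10.3, 12.9, 10.4, 23.2 and 44.0 CPM in 9 months skin. Its groups met at 24 months replicate 4, and its log2 fold change of -1.17 ± 0.38, the largest among the replication genes, was -0.33 ± 0.19 in 8 libraries. Rrm1, the large subunit, was at 52.3, 45.3, 54.2, 56.7 and 45.2 CPM in 24 months skin, against 57.3, 62.8, 56.8, 78.6 and 99.5 CPM in 9 months skin. It was the only replication gene whose groups did not overlap (1 of 22, or 4.55%, against 1.23% of all genes), with 56.7 CPM as its highest 24 months level and 56.8 CPM as its lowest at 9 months, and had a log2 fold change of -0.49 ± 0.17 and of -0.22 ± 0.13 in 8 libraries.

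**Figure D4:**
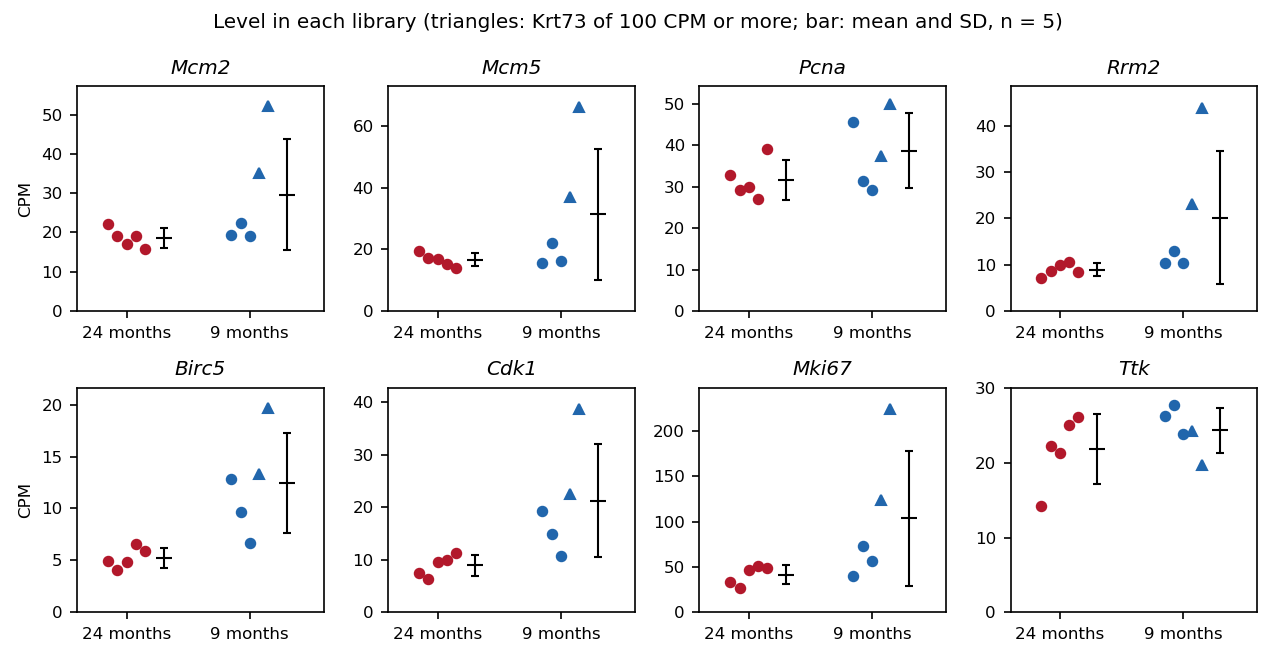
CPM of 4 replication genes (top) and 4 mitosis genes (bottom) in each library of 24 months (red, left) and 9 months (blue, right) skin; triangles are the 2 libraries with Krt73 of 100 CPM or more, and the bars give the mean and SD (n = 5 each). Birc5 is at 4.08 to 6.58 CPM at 24 months and 6.71 to 19.6 CPM at 9 months, while Mcm2 is at 15.7 to 22.2 CPM at 24 months and at 19.2 to 22.4 CPM in the 9 months circles.

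Birc5 and Cdca8, of the chromosomal passenger complex, had the 2 smallest p values of the 46. Birc5, the survivin gene (chr11:117849251-117855743), was at 4.95, 4.08, 4.88, 6.58 and 5.86 CPM in 24 months skin, against 12.8, 9.64, 6.71, 13.4 and 19.6 CPM in 9 months skin. Every 24 months library lay below every 9 months library, and the log2 fold change was -1.24 ± 0.27 (adjusted p = 0.142, edgeR), or -0.89 ± 0.25 in 8 libraries (adjusted p = 0.514, interval -1.44 to -0.33). Cdca8, the borealin gene of the same complex, was at 5.36, 4.60, 7.74, 8.99 and 8.17 CPM in 24 months skin, against 15.1, 13.4, 9.56, 17.4 and 28 CPM in 9 months skin. Again the groups did not overlap, and the log2 fold change was -1.26 ± 0.29, or -0.87 ± 0.26 in 8 libraries. Aurkb, the kinase of the complex, spanned 3.16 to 5.91 CPM at 24 months and 5.07 to 19.7 CPM at 9 months, with log2 fold changes of -1.15 and, in 8 libraries, -0.46.

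Of the 24 mitosis genes, 6 had every 24 months library below every 9 months library (25%, against 1.23% of all genes): Birc5, Cdca8, Melk, Plk1, Ccna2 and Ube2c. Melk, a kinase gene that follows the cell cycle, was at 2.67, 2.41, 3.36, 3.55 and 2.60 CPM in 24 months skin, against 5.57, 5.68, 3.81, 7.55 and 14.0 CPM in 9 months skin. Its log2 fold change was -1.33 ± 0.32, or -0.79 ± 0.24 in 8 libraries, where its interval was -1.31 to -0.26. Plk1, a Polo kinase, spanned 2.79 to 4.15 CPM in 24 months skin and 4.47 to 17.7 CPM in 9 months skin, with log2 fold changes of -1.29 and, in 8 libraries, -0.65. Ube2c, the ubiquitin-conjugating enzyme of the anaphase-promoting complex, spanned 5.23 to 9.41 CPM at 24 months and 9.69 to 27.1 CPM at 9 months, with log2 fold changes of -1.11 and, in 8 libraries, -0.70. It shares 22.8% of its exon bases with the muscle gene Tnnc2 on the opposite strand, which was at 43.5 to 68.5 CPM in 24 months skin and 31.5 to 184 CPM in 9 months skin.

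Cdk1 and the cyclins, which drive entry into mitosis, had lower mean levels in 24 months skin with and without the 2 libraries. Cdk1 (chr10:69335146-69352938) was at 7.48, 6.35, 9.69, 10.1 and 11.3 CPM in 24 months skin, against 19.2, 15.02, 10.7, 22.6 and 38.8 CPM in 9 months skin. The groups overlapped by 24 months replicate 5 and 9 months replicate 3 alone, and the log2 fold change was -1.24 ± 0.31 (adjusted p = 0.163, edgeR), or -0.74 ± 0.25 in 8 libraries. Ccnb2 was at 4.72, 4.16, 6.66, 8.14 and 5.38 CPM in 24 months skin, against 12.2, 11.2, 7.31, 14.96 and 25.4 CPM in 9 months skin. Only 24 months replicate 4 reached into the 9 months range, and the log2 fold change was -1.29 ± 0.31, or -0.82 ± 0.27 in 8 libraries. Ccnb1, the other B-type cyclin and the mitosis gene of lowest level per length at 1.37 CPM per kb, was at 2.63, 2.54, 4.18, 4.35 and 3.46 CPM in 24 months skin, against 7.09, 6.25, 4.10, 8.18 and 15.2 CPM in 9 months skin. Replicates 3 and 4 at 24 months were above 9 months replicate 3, and the log2 fold change was -1.25 ± 0.33, or -0.76 ± 0.27 in 8 libraries. Ccna2, the A-type cyclin, spanned 8.38 to 14.98 CPM in 24 months skin and 15.01 to 50.7 CPM in 9 months skin, with log2 fold changes of -1.19 and, in 8 libraries, -0.53. Processed pseudogenes are annotated for Ccnb1 and Ccnb2, as for Tyms.

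The checkpoint and anaphase genes included Ttk, the mitosis gene of smallest fold change. Cdc20, the activator of the anaphase-promoting complex and the mitosis gene of highest level per length at 7.64 CPM per kb, was at 6.81, 6.57, 9.24, 12.4 and 8.39 CPM in 24 months skin, against 16.6, 15.2, 11.3, 19.4 and 36.8 CPM in 9 months skin. Replicate 4 at 24 months overlapped replicate 3 at 9 months, and the log2 fold change was -1.19 ± 0.31, or -0.73 ± 0.24 in 8 libraries. Ttk, a checkpoint kinase, was at 14.2, 22.3, 21.3, 25.1 and 26.2 CPM in 24 months skin, against 26.2, 27.7, 23.8, 24.3 and 19.7 CPM in 9 months skin. It was the only mitosis gene not at its highest in 9 months replicate 5, which was its lowest 9 months library, and its log2 fold change was -0.16 ± 0.17 (adjusted p = 0.760, edgeR; interval -0.54 to 0.22). In 8 libraries it was -0.25 ± 0.20, farther from 0 than with all 10. The checkpoint genes Bub1 and Bub1b had log2 fold changes of -1.34 and -0.92, and of -0.45 and -0.27 in 8 libraries, and Aurka, the centrosomal Aurora kinase, of -0.91 and -0.65.

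The spindle motors and kinetochore genes, like the other mitosis genes except Ttk, had smaller differences without the 2 libraries. Cenpe, a kinesin at the kinetochore with 1.48 CPM per kb, was at 5.84, 4.95, 7.36, 9.07 and 8.63 CPM in 24 months skin, against 6.66, 14.0, 9.66, 21.4 and 40.3 CPM in 9 months skin. Its 24 months replicates 3 to 5 were above 9 months replicate 1, and the log2 fold change was -1.36 ± 0.42, or -0.50 ± 0.28 in 8 libraries (interval -1.12 to 0.13). Kif23, a kinesin of the central spindle, was at 11.2, 8.14, 20.6, 17.9 and 20.6 CPM in 24 months skin, against 14.0, 23.3, 15.7, 23.0 and 39.7 CPM in 9 months skin. Its groups overlapped broadly, and with Ttk it was one of the 2 mitosis genes at an unadjusted p above 0.05, with a log2 fold change of -0.56 ± 0.33, or -0.17 ± 0.32 in 8 libraries. For the motors Kif11 and Kif20a the log2 fold changes were -1.25 and -1.01, and -0.44 and -0.28 in 8 libraries. Kif20a shares 29.3% of its exon bases with Cdc23 on the opposite strand. Cdc23 was at 34.5 to 41.1 CPM in 24 months skin and 22.3 (replicate 1) to 54.3 CPM in 9 months skin. The kinetochore gene Cenpf and the spindle genes Tpx2 and Nusap1 had -1.26, -1.37 and -0.81, and -0.65, -0.68 and -0.49 in 8 libraries. Tpx2, a spindle assembly factor, had the largest fold change of the 46.

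Mki67 and Top2a, widely used as marks of dividing cells, followed Cdc20 in level per length at 7.21 and 6.84 CPM per kb. Mki67, which coats mitotic chromosomes (chr7:135689784-135716361), was at 33.6, 26.8, 47.0, 51.0 and 48.6 CPM in 24 months skin, against 39.7, 73.7, 57.0, 124 and 224 CPM in 9 months skin. Replicate 1 at 9 months lay inside the 24 months range, and the log2 fold change was -1.32 ± 0.41 (adjusted p = 0.192, edgeR), or -0.46 ± 0.25 in 8 libraries (interval -1.02 to 0.10). Top2a, the topoisomerase that untangles chromosomes, was at 29.5, 27.3, 41.8, 47.8 and 40.4 CPM in 24 months skin, against 44.4, 67.7, 45.8, 101 and 170 CPM in 9 months skin. Only 24 months replicate 4 reached above the lowest 9 months library, and the log2 fold change was -1.20 ± 0.35, or -0.50 ± 0.22 in 8 libraries. The 12 mitosis genes of longer exons were Mki67, Top2a, Cenpe, Kif11, Kif23, Cenpf, Bub1, Kif20a, Tpx2, Cdk1, Cdca8 and Ttk. In 9 months replicate 1 their mean deviation minus that of the shorter mitosis genes was -0.42 log2 units. Among the longer genes, Cdk1, Cdca8 and Ttk stood above their own means there, by 0.56, 0.55 and 0.21 log2 units, and the others below. Without 9 months replicate 1 the mitosis median was -1.30, with 22 genes lower at an unadjusted p under 0.05. It was -0.58 with 9 genes when the 2 high-Krt73 libraries were left out too. The share of all genes is given for neither of these fits.

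**Figure D5:**
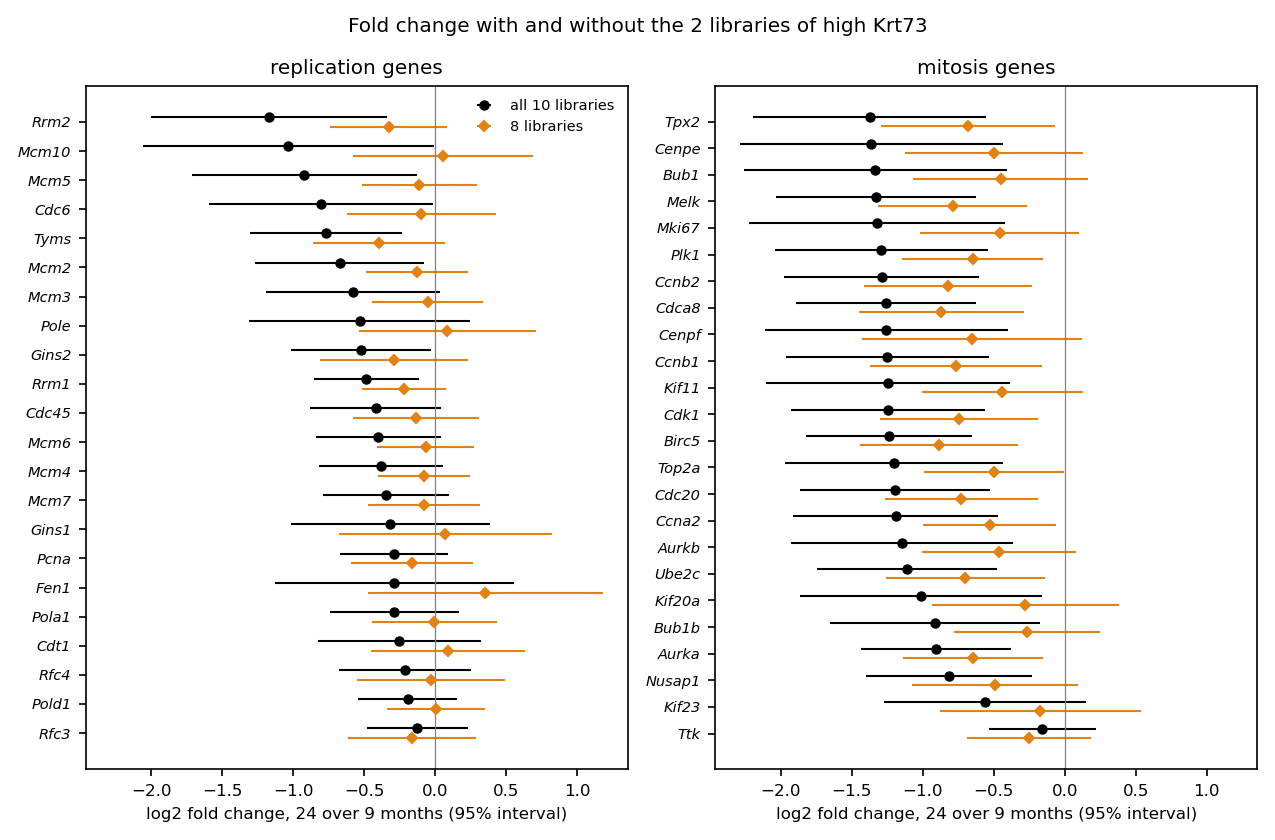
Log2 fold change of 24 over 9 months with its 95% interval from edgeR for each replication gene (left) and mitosis gene (right), in all 10 libraries (black circles) and in the 8 libraries without high Krt73 (orange diamonds). In 8 libraries the replication genes lie from -0.40 to 0.35 around the zero line, and the mitosis genes all lie below it, from -0.89 to -0.17.

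Among other genes of the same pathways, listed apart from the 46, the mitosis genes also had the more negative median. These lists were measured in the same libraries and chosen with earlier results of these data known, so they are no independent support. Of 48 other replication genes tested, 11 were lower and 0 higher at an unadjusted p under 0.05 (22.9% lower, against 6.45% of all genes). Their median was -0.27. In 8 libraries 4 were lower (8.33%, against 4.14% of all genes) and 1 higher (2.08%, against 4.65%), with a median of -0.05. Those with the smallest p were Clspn, a checkpoint mediator at the fork (log2 fold change -1.45, and -0.60 in 8 libraries), Gmnn, the inhibitor of Cdt1 (-0.79 and -0.58), and Pole2, a subunit of polymerase epsilon (-0.78 and -0.51). Gmnn was at 6.65, 5.35, 5.66, 5.68 and 6.11 CPM in 24 months skin, against 12.4, 7.28, 6.53, 11.9 and 12.8 CPM in 9 months skin, with only the highest 24 months library above the lowest at 9 months. Of 54 other mitosis genes, 47 were lower and 0 higher (87.0% lower), with a median of -0.94, and in 8 libraries 16 were lower (29.6%, against 4.14% of all genes) with a median of -0.45. Cdca3, which promotes entry into mitosis, Cdc25c, the phosphatase that activates Cdk1, and Kifc1, a spindle kinesin, had the smallest p, with log2 fold changes of -1.17, -1.35 and -1.12, and of -0.89, -0.95 and -0.80 in 8 libraries. Cdca3 was at 9.22, 7.11, 8.89, 11.0 and 10.6 CPM in 24 months skin, against 23.3, 15.4, 13.3, 19.6 and 34.0 CPM in 9 months skin, so its groups did not overlap. Of 26 genes that control the cycle, 6 were lower (23.1%, against 6.45% of all genes) and 0 higher with a median of -0.22. In 8 libraries 0 were lower (against 4.14% of all genes) and 1 higher (3.85%, against 4.65%), with a median of 0.04. The smallest p among these belonged to the E2F factor genes E2f1 and E2f2 and the G1 kinase gene Cdk4, with log2 fold changes of -0.63, -0.74 and -0.57, and of -0.44, -0.29 and -0.33 in 8 libraries. In the edgeR fits on 10 and on 8 libraries none of these genes passed an adjusted p of 0.05.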

How the data were processed

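Skin of 5 mice labelled 24 months and 5 labelled 9 months was analysed. The authors deposited whole-number read counts per Ensembl gene, not normalised. The submitters' processing notes name featureCounts 1.4.6-p4, STAR 2.4.1d, CASAVA 1.7 and the build GRCm38, without their roles. Their annotation release, strand setting and treatment of reads with several matches are not given in the sources used. The deposited RPKM table was not used. Symbols, positions and exon lengths came from GENCODE vM21 (GRCm38), by gene identifier.

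From the deposited counts, genes were filtered with filterByExpr, scaled by TMM and tested with edgeR 4.0.16 (robust quasi-likelihood F test, R 4.3.3), 24 over 9 months, with Benjamini-Hochberg adjustment over all genes tested and a threshold of 0.05. SE is the log2 fold change divided by the square root of F, and intervals are 95%. DESeq2 1.42.0 and limma 3.58.1 were alternatives. The edgeR script was tested on simulated data. The 2 libraries with Krt73 of 100 CPM or more were left out of a second fit, with filter and scaling computed anew. Replicates were numbered 1 to 5 in listing order.

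The members and all lists were chosen with earlier results of these data known. Genes given in every library were, in each set, the 6 of smallest and 2 of largest p, the 2 of highest and 2 of lowest level per length, and Mcm2, Pcna, Rrm2, Mki67, Top2a, Ccnb1 and Cdk1. Of each further pathway list, the 3 of smallest p are named by fold change, and Gmnn and Cdca3 also by library. Values of other genes are ranges or fold changes. Totals were 29324259 to 55976007 counts per library, and the lowest count of a member in a library was 11 (Fen1).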

Additional observations from a re-analysis of the deposited data

Results flagged for a closer look

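In 98 groups of 5 libraries, 2 for each of the 46 genes and 6 more of summed levels, 2 held a library farther from the rest than Dixon's critical value of 0.71 allows; chance alone gives about 1 in 20. Gins1, a GINS subunit gene, was at 6.13 CPM in 24 months replicate 1, against 2.33 to 3.19 CPM in the other 24 months libraries. Aurka, the centrosomal Aurora kinase gene, was at 19.2 CPM in 9 months replicate 5, one of the 2 libraries with high Krt73, against 8.51 to 11.1 CPM in the other 9 months libraries.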

How the results depend on the processing

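No member passed an adjusted p of 0.05 in any edgeR or limma fit. In the edgeR fit without the 2 libraries of high Krt73, 1 gene of the table was called, 0 replication and 13 mitosis genes had an unadjusted p under 0.05 in the lower direction, and the mitosis median was -0.59. Without 24 months replicates 1 and 2, 4 replication genes were lower. Without a filter on low counts 1 gene of the table was called. DESeq2 called 907 genes, 1 of them a replication and 19 of them mitosis genes, and 127 genes in 8 libraries, a fit added after seeing the data. With limma-voom 4 replication genes were lower, and with quality weights 5, with 3 genes of the table called. With the hair markers as a covariate, 1 gene of the table was called, 0 replication and 2 mitosis genes were lower, and the medians were 0.078 and -0.38. The cause of each of these shifts was not tested. Shares of all genes at an unadjusted p under 0.05 are given only for the main edgeR fit and the edgeR fit without the high-Krt73 libraries.

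Leaving out 1 library at a time, 0 to 8 genes of the table were called (8 without 24 months replicate 4), 0 to 0 replication and mitosis genes were called, 3 to 12 replication and 20 to 22 mitosis genes were lower, and the medians were -0.51 to -0.19 and -1.39 to -0.84. In 8 libraries, left out after seeing the data, the same gave 0 to 1 genes called, 0 to 1 replication genes lower (1 without 24 months replicate 5), 8 to 15 mitosis genes lower, and medians of -0.15 to -0.01 and -0.67 to -0.42. In 8 libraries 6 of 22 replication genes had positive fold changes (0 of 24 mitosis genes), and with the covariate 14 of 22 replication and 3 of 24 mitosis genes. Among the 23 genes given in every library, fold changes turned positive for Fen1 (0.35 in 8 libraries, 0.75 with the covariate, and -0.49 to 0.040 with 1 library left out, positive without 9 months replicate 5) and Mcm10 (0.055 in 8 libraries, 0.36 with the covariate), and with the covariate for Mcm5 (0.22), Mcm2 (0.081), Mcm6 (0.074) and Kif23 (0.041). Among the others they were positive for Gins1, Cdt1, Pold1 and Pole in both, and with the covariate also for Mcm3, Mcm4, Mcm7, Cdc6, Pola1, Bub1b and Kif20a (0.057 to 0.29), with Pole at 0.51. RLE scaling and edgeR without robust estimation kept all 23 genes given in every library on the same side. No paired analysis was possible because the replicate numbers follow the listing order and pair no libraries. With 5 libraries a group, and 2 of the 9 months ones far from the rest, intervals of single genes are wide.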
